A study of Gallus gallus with 6 samples.

Results

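Smooth muscle and contractile genes were followed in sorted cells of the gastrulating chick embryo. The list held 10 genes, namely ACTA2, TPM1, CALD1, CNN1, TAGLN, MYL9, MYLK, VCL, CSRP1 and PDGFRB, and each was taken with every probe set of the Affymetrix Chicken Genome Array that is annotated to that gene alone. Of the 10 genes, 9 were matched, with 25 of the 38439 probe sets. CNN1, the smooth muscle calponin, had no probe set under the annotation used here and was not analysed here.

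Embryos at stage HH3 received 2 plasmids together by electroporation. One was Hb-eGFP, in which a short piece of the regulatory region of chick Cerberus and the human beta-globin minimal promoter drive green fluorescent protein. The other was pCAGGS-RFP, a ubiquitous red reporter. At HH5-6, cells from 3 pools of 4 embryos were separated by flow cytometry into Hb-eGFP+ cells and eGFP-negative, RFP-positive cells (RFP+ control), and each population was hybridised to 3 arrays. Both groups were therefore electroporated and transiently transfected, and the control was a mixture of all other electroporated cells and not a single cell type. Labels call the 3 arrays of a group biological replicates.

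Contraction in smooth muscle rests on thin filaments of actin and tropomyosin and thick filaments of myosin, and calcium acts mainly through myosin light chain kinase, which phosphorylates the regulatory light chain. Caldesmon, calponin and transgelin bind the thin filament, and vinculin and the LIM protein CSRP1 belong to the sites where filaments are anchored and to the actin scaffold. Most of these genes also serve non-muscle cells during migration and shape change, and many of them are targets of the transcription factor SRF and its partner myocardin.

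The 9 genes did not move in 1 direction. CALD1 rose in the Hb-eGFP+ cells by all 4 of its probe sets, by 2.11- to 3.27-fold, and MYLK rose by 2 of 4. TPM1 fell by all 8 of its probe sets, by 1.27- to 2.001-fold, and PDGFRB fell by 1 of 2. The probe sets of TAGLN, MYL9, ACTA2, CSRP1 and VCL did not pass the test. These counts come from an unpaired fit. Both populations were sorted from the same pools, and the labels do not say which arrays share one. With the replicate number as a block, TPM1 had 6 of 8 probe sets lower and MYLK 1 of 4 higher, the dim MYLK probe set then having adjusted p = 0.099, and MYLK likewise had 1 of 4 without any 1 array. Of the 25 probe sets, 6 were higher, 9 were lower and 10 were not called by limma at an adjusted p of 0.05, where 4.02% of all probe sets were higher and 5.05% lower. The 25 are not independent, because 8 of the 9 lower ones read TPM1 and 4 of the 6 higher ones read CALD1, and counted by gene there were 2 with a higher and 2 with a lower probe set. The median log2 difference of the 25 was 0.01, beside 0.02 over all probe sets, whereas the median of its size without sign was 0.41 and 0.14. Because the members were chosen with earlier results of these data known, these comparisons with all probe sets describe the members and do not test them. Under a minimum fold of 1.7 tested by limma, 2 probe sets, both of CALD1, were higher and 0 were lower. The lower count was 5 when RFP+ control replicate 2, Hb-eGFP+ replicate 1 or Hb-eGFP+ replicate 3 was left out.

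By the rule of the study's methods, in which the lower 90% bound of the ratio of the group means has to exceed 1.7, 4 probe sets were higher, all of CALD1, and 1 was lower, of PDGFRB. The corresponding shares of all probe sets were 0.718% and 1.30%. The 3 arrays of the Hb-eGFP+ group lay all above the 3 control arrays for 6 probe sets and all below them for 11, and the groups overlapped for 8. Over the whole array the groups did not overlap for 16.0% of probe sets in the higher and 14.1% in the lower direction. In bulk RNA of a sorted population, fewer cells of a type and less RNA per cell cannot be told apart.

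**Figure D1:**
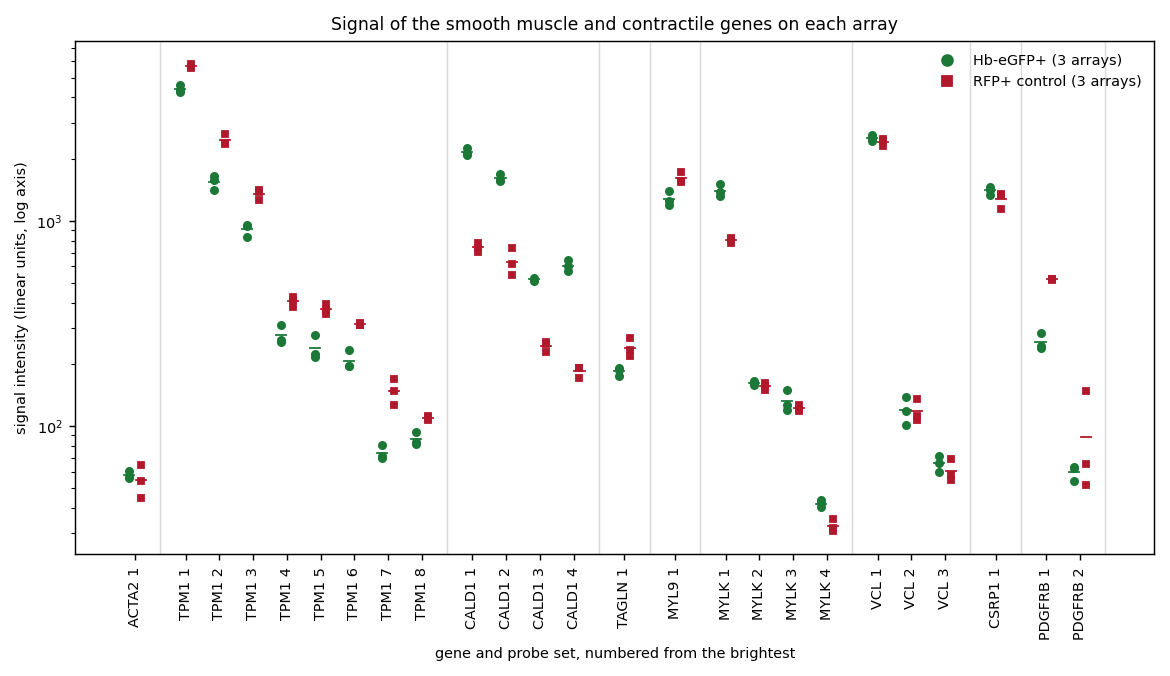
Signal intensity (linear units on a log axis) of the 25 probe sets of 9 genes, with 1 point for each of the 6 arrays and a short line at the mean of each group. The CALD1 points of the Hb-eGFP+ cells lie above and the TPM1 points below those of the RFP+ control in every probe set, and the numbers after the gene symbols only name the probe sets, in order of mean signal.

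Each array carries one expression index per probe set, a signal intensity on a linear scale, and array medians were 87.7 to 91.1. The probe set of GFP checked the sort, with 17083 ± 229 in the Hb-eGFP+ and 926 ± 80.5 in the control arrays (SD, n = 3). Spearman correlations between arrays were 0.983 to 0.991 within groups and 0.964 to 0.979 between them. The 56 other reporter probe sets, which have no chick target, had medians of 31.9 to 37.8 and 90th percentiles of 80.2 to 100 per array, and 3 of the 25 probe sets lay below that percentile on every array. GFP in the control arrays, at 992, 836 and 949, was above that percentile, and the source of this signal was not tested. The number of arrays limits the precision, since a single value compared between 3 and 3 arrays cannot reach an exact permutation p below 0.1.

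Among the markers of differentiated smooth muscle, ACTA2 and MYH11 were dim in both groups. TAGLN, ACTG2 and desmin were not, and MYOCD differed by probe set. ACTA2 (gene ID 423787), the smooth muscle alpha-actin, gave 60.7, 56.3 and 56.0 in the Hb-eGFP+ arrays and 54.1, 44.8 and 64.8 in the control arrays. Its groups overlapped, and its log2 difference was 0.09 (95% interval -0.22 to 0.41, limma adjusted p = 0.73). MYH11, the smooth muscle myosin heavy chain, lay between 43.7 and 52.3 over the 6 arrays. Both genes were below the reporter 90th percentile on every array. Each had 1 probe set, so a low transcript level and a weak probe set cannot be told apart. Desmin, the intermediate filament of muscle, gave 93.6 to 105 by one probe set and 132 to 147 by the other. MYOCD, the gene of myocardin, gave 417 to 533 by its brighter probe set. Its dimmer probe set gave 62.2 to 86.9, below the reporter 90th percentile on every array. TAGLN lay between 176 and 268, and ACTG2, the smooth muscle gamma-actin, between 154 and 227. TAGLN, ACTG2, desmin and the brighter MYOCD probe set were above the reporter 90th percentile on every array. None of them, nor the dimmer MYOCD probe set, was called between the groups. SMTN, LMOD1 and CNN1 were not matched to a probe set.

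CALD1 (gene ID 373965) encodes caldesmon, an actin-binding protein that inhibits the myosin ATPase and has a heavy form in smooth muscle and a light form in other cells. Its probe set 1 gave 2095, 2277 and 2146 in the Hb-eGFP+ cells and 739, 707 and 783 in the control cells. Probe set 4 gave 645, 567 and 600 against 192, 171 and 192. In both, every Hb-eGFP+ array was more than double any control array. Probe set 2 gave 1578, 1702 and 1558 against 614, 544 and 740, and probe set 3 gave 526, 518 and 511 against 252, 230 and 256. The log2 differences were 1.55 ± 0.08, 1.36 ± 0.12, 1.08 ± 0.08 and 1.71 ± 0.09 for probe sets 1 to 4 (SE from limma), with adjusted p between 5.2e-05 and 0.00053. The lower bounds of the ratios were 2.74, 2.20, 1.996 and 2.99. All 4 calls remained under each of 12 alternative settings (other scalings, filters and variance models, a replicate block and each array left out), and under the minimum fold probe sets 1 and 4 were called.

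The 4 CALD1 probe sets did not give 1 common size. Probe set 4 exceeded the other CALD1 probe sets by 0.38 on the log2 scale (adjusted p = 0.025) and probe set 3 lay below them by 0.46, its difference from the others being -0.46 (adjusted p = 0.0069). The gene passed limma's diffSplice test, which asks whether the log2 differences of a gene's probe sets differ, with adjusted p = 0.0085, as did 13.9% of the 7334 genes that have over 1 probe set. CALD1 no longer passed when RFP+ control replicate 1 (adjusted p = 0.056), Hb-eGFP+ replicate 1 (adjusted p = 0.063) or Hb-eGFP+ replicate 3 (adjusted p = 0.083) was left out. Which form of caldesmon each probe set reads was not tested. Probe sets 3 and 4 carry the suffix _s_at, which Affymetrix gives to probes shared by several transcripts, and such probe sets can pool more than 1 product.

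TPM1 (gene ID 396366) encodes alpha-tropomyosin, which lies along the actin filament, and alternative splicing of the gene yields many muscle and non-muscle forms. Its probe set 1 gave 4271, 4614 and 4371 in the Hb-eGFP+ cells and 5818, 5654 and 5538 in the control cells. Probe set 2 gave 1422, 1661 and 1579 against 2653, 2369 and 2386. For probe set 7 the values were 80.5, 70.1 and 71.5 against 148, 127 and 170. As in all 8 probe sets of TPM1, every Hb-eGFP+ array was below every control array. The log2 difference was -0.36 ± 0.08 for probe set 1, -0.67 ± 0.09 for probe set 2 and -0.99 ± 0.12 for probe set 7, and the remaining 5 lay between -0.64 and -0.35. Adjusted p ranged from 0.0025 for probe set 7 to 0.048 for probe set 8. None of the 8 passed the lower bound of 1.7, although probe set 7 came to 1.699 and passed without Hb-eGFP+ replicate 1 or without RFP+ control replicate 2.

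The size of the TPM1 decrease differed among its probe sets. The diffSplice test gave adjusted p = 0.013 for the gene, and only probe set 7 stood apart from the others, by -0.46 (adjusted p = 0.0024). The gene no longer passed without RFP+ control replicate 1 (adjusted p = 0.12), RFP+ control replicate 3 (adjusted p = 0.14) or Hb-eGFP+ replicate 3 (adjusted p = 0.12). Probe set 7 lay below the reporter 90th percentile on 3 of 6 arrays, those of the Hb-eGFP+ cells. Probe sets 4, 5 and 8 were designed from the same transcript record and are not separate measurements, and the suffixes _x_at of 2 probe sets mark probes that may cross-hybridise. Probe sets 1 and 8 carry the suffix _s_at and can pool more than 1 product. The calls of probe sets 2, 3, 6 and 7 remained under the same 12 settings, but not under the minimum fold. Probe set 1 was called in 6 of the 12 and probe set 8 in 4. The number of TPM1 probe sets called was 4 when RFP+ control replicate 2, Hb-eGFP+ replicate 1 or Hb-eGFP+ replicate 3 was left out, while the direction was negative in every case.

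**Figure D2:**
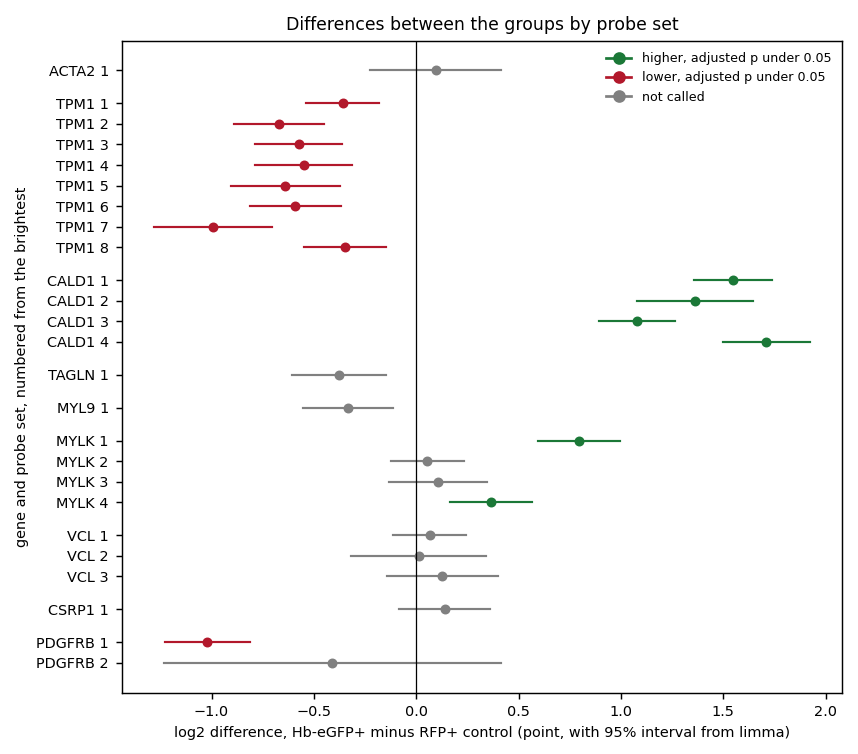
Log2 difference (Hb-eGFP+ minus RFP+ control) of the 25 probe sets, with its 95% interval from limma over 3 and 3 arrays, coloured by call. The 4 CALD1 probe sets lie between 1.08 and 1.71, the 8 TPM1 probe sets between -0.99 and -0.35, and the 3 VCL probe sets near 0.

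MYLK (gene ID 396445) encodes myosin light chain kinase, and from the same gene come a long and a short kinase and the small protein telokin. Probe set 1 gave 1380, 1520 and 1318 in the Hb-eGFP+ cells and 819, 825 and 783 in the control cells, a log2 difference of 0.80 ± 0.08 (adjusted p = 0.0012) and a ratio of 1.74 with a lower bound of 1.61. Probe set 2 gave 166, 158 and 163 against 150, 163 and 157, and probe set 3 gave 127, 120 and 150 against 119, 127 and 121. The groups overlapped in both, with log2 differences of 0.05 (95% interval -0.12 to 0.23, adjusted p = 0.72) and 0.11 (-0.13 to 0.35, adjusted p = 0.58). Probe set 4 gave 42.1, 43.5 and 40.1 against 35.1, 30.8 and 31.8, and passed the test with adjusted p = 0.041 at a log2 difference of 0.36. That probe set was dim, with every array below the reporter 90th percentile, and it kept its call in 1 of the 11 settings that tested it. The call of probe set 1 was kept in all 12 settings and lost under the minimum fold.

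The probe sets of MYLK differed among themselves. The diffSplice test gave adjusted p = 0.00025, the smallest of the 5 members with over 1 probe set, and MYLK passed it without any 1 array, with adjusted p up to 0.0065. Probe set 1 exceeded the other probe sets by 0.62 on the log2 scale (adjusted p = 0.00012), and probe sets 2 and 3 had differences from the others of -0.37 (adjusted p = 0.013) and -0.30 (adjusted p = 0.045). A single value for MYLK would therefore depend on the probe set, and the transcript behind each was not tested.

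The substrate of the kinase, the regulatory light chain, was represented among the members by MYL9 (gene ID 396215), a light chain gene of smooth muscle and non-muscle cells. It gave 1399, 1252 and 1197 in the Hb-eGFP+ cells and 1733, 1547 and 1561 in the control cells. TAGLN (gene ID 396490), the gene of transgelin, also called SM22, gave 176, 187 and 191 against 268, 236 and 219. For both genes every Hb-eGFP+ array was below every control array, with log2 differences of -0.33 ± 0.09 and -0.38 ± 0.10, but neither passed over all probe sets (adjusted p = 0.075 and 0.056). Where each gene was represented by its brightest probe set and p was adjusted over 13009 genes, both passed (adjusted p = 0.033 for MYL9 and 0.024 for TAGLN). Both also passed in 3 of the 12 settings, namely without dim probe sets, with 50 added to every value and with an intensity trend, and in none that left out an array. The light chain gene MYL12A, not a member, had 0 of 3 probe sets called, with log2 differences from -0.04 to 0.07. Its brightest probe set gave 6300, 6222 and 5924 in the Hb-eGFP+ cells against 6194, 6464 and 6271 in the control cells.

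VCL (gene ID 396422), the gene of vinculin, which links actin to integrins and cadherins, had 3 probe sets and none was called. The brightest gave 2466, 2548 and 2615 in the Hb-eGFP+ cells and 2510, 2452 and 2328 in the control cells, and the groups overlapped. Its log2 difference was 0.07 (95% interval -0.11 to 0.24, adjusted p = 0.66), and those of the other 2 were 0.01 and 0.13, with adjusted p of 0.97 and 0.56. CSRP1 (gene ID 396176), a LIM protein of the actin scaffold, gave 1342, 1420 and 1462 against 1343, 1147 and 1356, again with overlap, and a log2 difference of 0.14 (95% interval -0.08 to 0.36, adjusted p = 0.43). These intervals leave room for differences of up to about 0.4 on the log2 scale for CSRP1 and VCL.

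PDGFRB (gene ID 770488) encodes the beta receptor for platelet-derived growth factor, through which mural cells are recruited to vessels. Probe set 1 gave 246, 283 and 240 in the Hb-eGFP+ cells and 521, 521 and 514 in the control cells. The control signal was thus 2.02 times that of the Hb-eGFP+ cells, with a lower bound of 1.86, a log2 difference of -1.02 ± 0.09 and adjusted p = 0.00047, and the call remained in the 12 settings but not under the minimum fold of 1.7 in limma. Probe set 2 was dim, with 53.8, 63.3 and 62.7 against 65.4, 51.5 and 149, and the groups overlapped (log2 difference -0.41, adjusted p = 0.54). RFP+ control replicate 3 alone was high in it. Without that array its log2 difference was 0.043, and the diffSplice test of PDGFRB, which had adjusted p = 0.35 with all arrays, gave adjusted p = 0.0041.

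None of the 9 probe sets of the other PDGF genes was called, where 4.02% of all probe sets were higher and 5.05% lower. PDGFA, a ligand mainly of the alpha receptor, gave 771, 757 and 824 against 981, 956 and 955 by its brighter probe set (log2 difference -0.30, adjusted p = 0.054). PDGFB, the ligand of the beta receptor, gave 258, 252 and 243 against 223, 204 and 199 (0.26, adjusted p = 0.096). The arrays of the groups did not overlap for these probe sets of PDGFA and PDGFB. Over all probe sets this held for 14.1% in the lower and 16.0% in the higher direction. PDGFRA, the alpha receptor, gave 74.2 to 84.8 against 77.1 to 98.0.

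**Figure D3:**
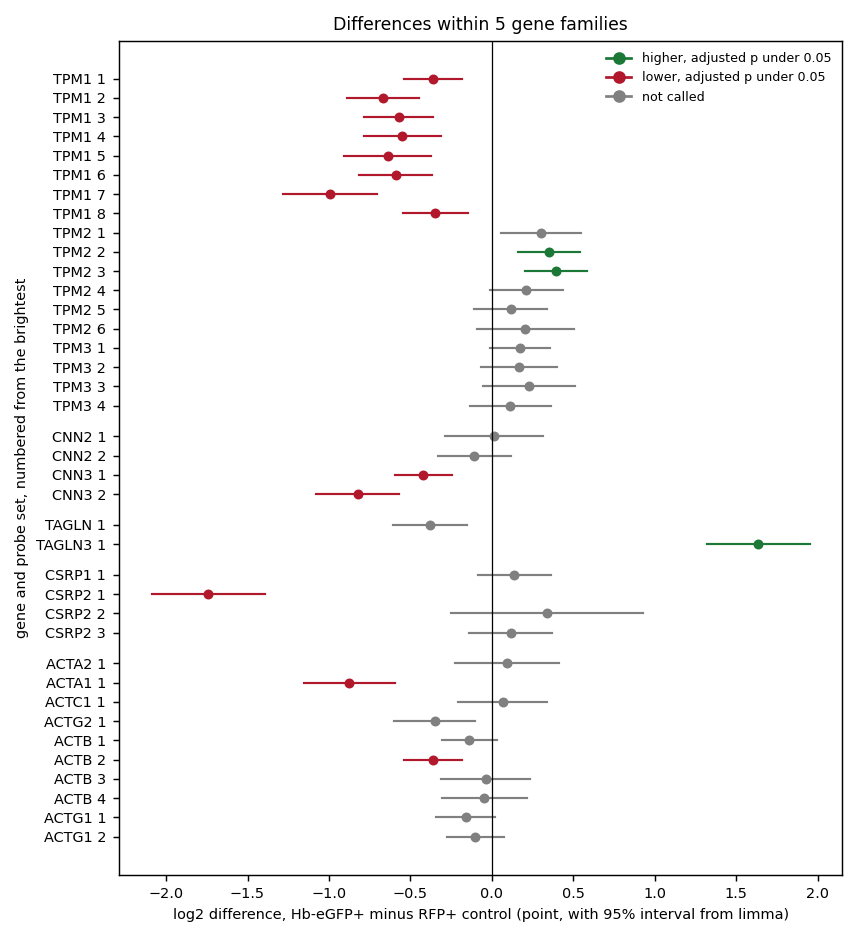
Log2 difference (Hb-eGFP+ minus RFP+ control) with its 95% interval for every probe set of tropomyosins, calponins, transgelins, the CSRP proteins and actins, coloured by call. TPM1 and CNN3 lie below 0 and TAGLN3 at 1.63 above it, and only 1 of 3 CSRP2 probe sets was lower, at -1.74.

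Relatives of the members went in various directions. Their calls, and those of the gene lists below, come from the main fit only and were not examined under the alternative settings. Among the tropomyosins, which stabilise the actin filament, TPM2 rose slightly by 2 of 6 probe sets, with log2 differences of 0.35 and 0.39 (adjusted p = 0.040 and 0.024), and the other 4 were between 0.11 and 0.30. Its probe set 3 gave 486, 444 and 445 in the Hb-eGFP+ cells against 343, 364 and 339. TPM3 had 0 of 4 called, with log2 differences from 0.11 to 0.23. The difference between TPM1 and TPM2 was not itself tested.

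CNN3, a calponin of non-muscle cells, fell by both probe sets. The brighter one gave 5455, 5847 and 5706 against 7801, 7499 and 7464 (log2 difference -0.42, adjusted p = 0.014), and the other 207, 265 and 253 against 420, 415 and 441 (-0.82, adjusted p = 0.0035). CNN2, another calponin, had 0 of 2 probe sets called, with log2 differences of 0.01 and -0.11 (adjusted p = 0.97 and 0.55). TAGLN3, the transgelin known from neurons, rose: it gave 396, 446 and 434 against 121, 126 and 167, a ratio of 3.08 (log2 difference 1.63, adjusted p = 0.00036). CSRP2, a LIM protein of the same family as CSRP1, fell by its brightest probe set, with 196, 168 and 196 against 546, 570 and 777 (-1.74, adjusted p = 0.00043). The 2 dimmer CSRP2 probe sets had differences of 0.34 and 0.11 and were not called. ACTA1, the skeletal alpha-actin, fell, with 331, 304 and 393 against 685, 572 and 622 (-0.87, adjusted p = 0.0040). The brightest probe set of ACTB, the cytoplasmic beta-actin, was not called (-0.14, adjusted p = 0.29), nor were those of ACTG1, ACTG2 and ACTC1.

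Beyond the 10 members, 60 genes of the contractile apparatus, of its regulators, of the actins, of adhesion sites and of PDGF signalling had 137 probe sets. Of these, 8 were higher, 12 lower and 117 not called. Among all probe sets 4.02% were higher and 5.05% lower, and the counts of each list below are to be read beside these shares. Of the 44 probe sets of the contractile apparatus, 3 were higher (TAGLN3 and TPM2) and 2 lower (CNN3), and those of the myosins MYH9, MYH10 and MYH11, the light chains MYL6 and MYL12A, RHOA and its kinases ROCK1 and ROCK2 were not called. The median log2 difference of the list was 0.07. Neither SRF, with 636, 522 and 570 against 639, 637 and 532 in its brighter probe set, nor MYOCD was called (adjusted p = 0.78 and 0.43). Among 20 probe sets of SRF and its partners and LIM cofactors, 3 were higher and 2 lower. FHL1, a LIM protein of muscle, rose by 1 of 2 probe sets, with 143, 182 and 155 against 43.3, 55.9 and 56.7 (log2 difference 1.63, adjusted p = 0.00042). The ETS factors ELK3 (0.57) and ELK4 (0.50 by 1 of 5 probe sets) also rose, and FHL2, a LIM cofactor of the heart, fell, with 139, 130 and 156 against 312, 305 and 342 (-1.18, adjusted p = 0.00037).

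At focal adhesions, the sites where stress fibres meet integrins, 1 of 52 probe sets was higher and 6 were lower, beside 4.02% and 5.05% of all probe sets. PXN, the adaptor paxillin, rose by 1 of 2 probe sets, by 0.36 on the log2 scale. The lowest were PDLIM5, a LIM protein of the Z-disc and stress fibres (-0.71 by 1 of 6 probe sets), LIMS1, the integrin adaptor PINCH (-0.60 by 2 of 6), and TES, the gene of testin (-0.45 by 1 of 2). Among 13 probe sets of the actins and of ACTR2 and ACTR3, subunits of the Arp2/3 complex, 1 of 2 ACTR2 probe sets rose (0.34) and ACTA1 and 1 of 4 ACTB probe sets (-0.36) fell. No list of this kind had a median beyond 0.16 in size.

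**Figure D4:**
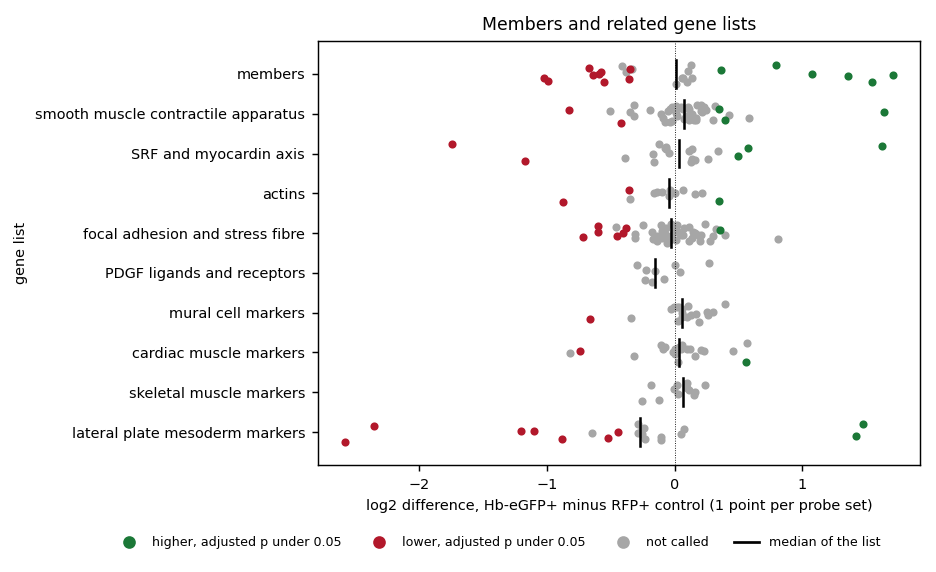
Log2 difference (Hb-eGFP+ minus RFP+ control) of each probe set of the members and of 9 related gene lists, coloured by call, with a black line at the median of each list. The medians of the muscle and contractile lists lie between -0.16 and 0.07, and the lateral plate mesoderm list reaches from -2.58 for ISL1 to 1.48 for PITX1.

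Other muscle and embryonic cell types were read from their own markers, again beside shares of 4.02% higher and 5.05% lower among all probe sets. Of 21 cardiac probe sets, TNNT2, the cardiac troponin T, was higher (1810, 1982 and 1861 against 1381, 1281 and 1190) and NKX2-5, a cardiac transcription factor, lower (106, 87.4 and 90.04 against 151, 163 and 158). None of 12 skeletal muscle probe sets was called, in a list that did not hold ACTA1. ACTA1, the skeletal alpha-actin, was counted among the actins and was lower (-0.87). Of 19 probe sets of the mural cell list, which did not hold PDGFRB, 1 was lower, of TCF21 (-0.66). The mural markers RGS5, CSPG4, ABCC9 and KCNJ8 had no probe set called, but many of these probe sets were dim. The ABCC9 probe sets lay below the reporter 90th percentile on 6 arrays each, those of CSPG4 on 6 or 3. Those of KCNJ8 lay below it on 6 or 2 arrays and those of RGS5 on 6 or 0. NOTCH3 was not matched to a probe set. PDGFRB, counted among the members, was lower by its probe set 1 (-1.02) and not called by probe set 2. Of the 20 lateral plate mesoderm probe sets, 7 were lower, led by ISL1 (-2.58), and 2 higher, both of PITX1 (1.48 and 1.42). PITX1 is among the enriched genes that the study lists, with expression in the posterior extraembryonic mesoderm.

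Markers of the remaining cell types also differed between the groups. Blood and endothelial progenitor markers were higher by 15 of 35 probe sets and lower by 0, and the sum of their intensities lay between 31729 and 33803 with Hb-eGFP+ cells and between 12983 and 13969 with control cells. Lower markers came from neuroectoderm (8 of 15 probe sets, summed 1740 to 1942 against 10763 to 10844), paraxial mesoderm (9 of 13, 3214 to 3529 against 12629 to 13206) and epithelium and non-neural ectoderm (11 of 18, 12569 to 12790 against 22314 to 23299). Primitive streak markers were lower by 6 of 18 probe sets (19823 to 20874 against 23458 to 24149), and endoderm markers were lower by 7 and higher by 1 of 15 (17745 to 18779 against 23061 to 24070). The higher one was HHEX, with means of 9208 against 4286, and the endoderm sums include it. The study lists HHEX among its enriched genes, with expression in blood islands as well as the anterior intestinal portal. Lateral plate markers summed to 11406 to 12122 against 14350 to 14631. No defining marker was at 0 on these arrays, whose index has no true zero, and the part of these cell types in the differences of TPM1, PDGFRB, CALD1 and MYLK was not tested.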

How the data were processed

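RNA of 3 Hb-eGFP+ and 3 RFP+ control samples was amplified in 2 cycles and hybridised to 1 array each. The authors scanned with GCOS 1.4 and normalized in dChip, and deposited 1 model-based signal intensity per probe set on a linear scale. The paper states that the model used perfect match probes only. The normalization method and any background step within dChip are not given in the sources used here. All 6 value columns were used.

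Values were floored at 1, log2-transformed and compared with limma (unpaired, two-sided, Benjamini-Hochberg over 38439 probe sets, threshold 0.05), with diffSplice for genes of over 1 probe set. The ratio of group means with a 90% interval used the spread between arrays, not dChip's errors. Its normal quantile gives a narrower interval than a t quantile would with 3 arrays per group. Calculations were tested on simulated data. By the platform annotation, 27168 probe sets map to 1 gene, 177 to several and 11094 to none named here, and 26853 matched RefSeq genes of GRCg7b by gene ID, used for names only. The members and lists were chosen with earlier results of these data known. Named are all members with every probe set, up to 3 called genes per direction of related lists and 1 of other tissues, and GFP; family and marker genes that were not called were added with their values known. The settings varied were the scaling (quantile or median centring), an added constant of 50, a filter on dim probe sets, a trend with robust variances, a replicate block, 1 probe set per gene, a minimum fold of 1.7, no interval and each array left out. No DNA or protein sequence was used here. The fits were run in limma 3.58.1 (R 4.3.3) and the plots in matplotlib 3.10.9 (Python 3.11.15).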

Additional observations from a re-analysis of the deposited data

How the results depend on the processing

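Of the members' probe set values under the alternatives, 266 kept direction and call, 44 lost the call, 6 gained it and 5 turned sign, all 5 among uncalled probe sets. With 1 probe set per gene, 2 member genes were higher and 4 lower. With a minimum fold of 1.7, 2 member probe sets were higher and 0 lower, and 94 and 231 over the whole array. The member count lower was 5 to 9 when each array was left out, and over the whole array 811 to 1296 probe sets were higher and 1102 to 1721 lower, against 1545 and 1941 with all arrays. The lower bound called 1 to 2 member probe sets lower when each array was left out, and 2 without an interval. The diffSplice test called 1 to 3 members when each array was left out. The log2 difference of ACTA2 then ranged from -0.040 to 0.23, that of VCL probe set 2 from -0.10 to 0.12, and that of PDGFRB probe set 2 from -0.72 to 0.043. With the replicate number as a block, 900 probe sets were higher and 1248 lower, and 3 member calls were lost, of TPM1 probe sets 1 and 8 and MYLK probe set 4. Both populations were sorted from the same pools, but the labels do not say that a number marks a shared pool. The correlations of the deviations of same-numbered arrays, -0.12, -0.05 and 0.10, do not settle which arrays share one. Dim probe sets and 3 arrays per group limit what could be called. The causes of these changes were not tested.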
